A study of Mus musculus with 614 samples.

Results

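The LMPP gate comprised 65 single bone marrow cells, all of the cells that the labels place in it, of 614 cells in the whole series. The cells had been sorted as lineage-negative and c-Kit+ with CD34+ and Sca-1+, at an intermediate level of CD16/32 and without CD127, the interleukin-7 receptor. They came from untreated adult C57BL/6J mice of 7 to 10 weeks. Every other gate shared this strain, age range and lack of treatment. The gates used most for comparison, also from bone marrow, were 51 granulocyte-monocyte progenitors (GMP, lineage-negative, c-Kit+, CD16/32 high, CD34+, Sca-1-), 48 common lymphoid progenitors (CLP, lineage-negative, c-Kit low, CD127+, CD34+, Sca-1 low, Flt3+, Thy-1-) and 58 progenitors of dendritic cells without CD115 (the CDP gate, lineage-negative, CD11c-, MHCII-, Flt3+, c-Kit intermediate, IL7R-). The remaining gates were 66 common monocyte progenitors (cMoP), 4 gates of dendritic cell precursors (pre-DC) that differ in SiglecH and Ly6C (45 cells with both proteins, 68 with Ly6C only, 70 with SiglecH only and 70 with neither), 30 pre-pro-B cells, 27 pDC, the plasmacytoid kind of dendritic cell, and 16 pre-DC taken from blood. Each cell was captured on a microfluidic chip, its messenger RNA was copied from the poly(A) tail and amplified there, and it was sequenced as a library of its own.

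Lymphoid-primed multipotent progenitors lie between blood stem cells and the committed progenitors. They retain part of the transcription factor network of stem cells, they can still give rise to lymphocytes and to myeloid cells, and they are known for transcribing small sets of lymphoid and myeloid genes at a low or patchy level before commitment, which is called lineage priming. Dntt, the template-independent DNA polymerase that adds bases at the joints of antigen receptor genes, is the classical marker of lymphoid priming. Mpo, the myeloperoxidase of neutrophil granules, is its myeloid counterpart.

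Levels are given in TPM, a length-scaled share of a cell's transcripts, or as the mean over cells of log2(TPM + 1). Animals and pools are not named in the labels, so each gate was 1 sample, no difference between gates was tested, and every SD is a spread over cells. A gene was counted as past the fold where gate means differed by 1 or more on the log2 scale. Differences on this scale understate the change of genes with low TPM. Read depth cannot be recovered from TPM. As a stand-in, LMPP cells had from 1740 to 4995 genes at 1 TPM or more (median 3292), against medians of 3280 in CLP, 5208 in CDP and 5792 in GMP. The LMPP libraries carry consecutive numbers of their own, taken here as a run, while CLP, pre-pro-B and GMP cells share another consecutive block, so the gate and its run cannot be told apart. Y-linked transcripts without Xist were found in 64 of the 65 LMPP cells and neither kind in 1 cell. Xist only was found in 29 of 51 GMP, 9 of 48 CLP and 20 of 30 pre-pro-B cells, the gates of the shared block. No cell of the other gates had Xist only. No 2 columns were identical, and the highest Pearson correlation between any pair of LMPP cells was 0.546 over 12660 genes.

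The transcripts of the sorting proteins were compared with the gate first. Cd34 was at 1 TPM or more in 65 of 65 LMPP cells and had the highest mean of the 12 gates (log2 scale, 7.84 ± 2.23, SD over 65 cells). Kit, the stem cell factor receptor, was found in 45 of 65 cells and was also highest in LMPP, at a mean of 3.92. Ly6a, which encodes Sca-1, was found in 36 of 65 cells (55.4%, exact 95% interval 42.5 to 67.7). Il7r, the CD127 gene, was found in 3 cells (4.62%, interval 0.962 to 12.9), against a mean of 4.34 in CLP. Fcgr3, the CD16 gene, was found in 4 cells, although the gate was drawn at an intermediate level of CD16/32. Flt3, a growth factor receptor that often defines this population but is not in the gate's label, was found in 58 of 65 cells (89.2%, interval 79.1 to 95.6). Intervals given with shares are exact Clopper-Pearson 95% intervals, which cover counting error only.

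Markers of other cell types were nearly absent for some types and present at low levels for others. Of the red cell genes, Gata1, Klf1 and Epor were below 1 TPM in every LMPP cell, and 2 of 12 listed members were seen in any cell, with a summed level from 0 to 2982 TPM (median 0). Of 10 late neutrophil genes 2 were seen, and Ltf, Lcn2, Camp and Ngp were absent at 1 TPM. Of 10 B lineage genes 2 were seen, Ebf1 and Pax5 were below 1 TPM throughout, and Cd79b, a chain of the B cell receptor, was found in 16 of 65 cells (24.6%, interval 14.8 to 36.9). A count of 0 in 65 cells allows a share of up to 4.62% by the limit of 3 counts, and of 5.52% by the exact interval. The T and NK cell list had a higher sum, from 0 to 1780.5 TPM (median 105), of which Nkg7, a cytotoxic granule membrane protein, was found in 44 of 65 LMPP cells and in 49 of 51 GMP, while Cd3e, Cd3g and Ncr1 were below 1 TPM in all. Of the pDC genes 11 of 15 were seen in at least 1 LMPP cell (median sum 198 TPM), and of the genes of conventional dendritic cells and MHC class II 9 of 12 (median 141 TPM). The counts were 6 of 10 for megakaryocytes (median 2.66 TPM), 6 of 10 for stroma and endothelium (median 8.06, highest 1668 TPM), 4 of 6 for plasma cells, 4 of 9 for basophils and mast cells, 3 of 9 for macrophages and 2 of 6 for eosinophils. Their part in the results was not tested.

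**Figure D1:**
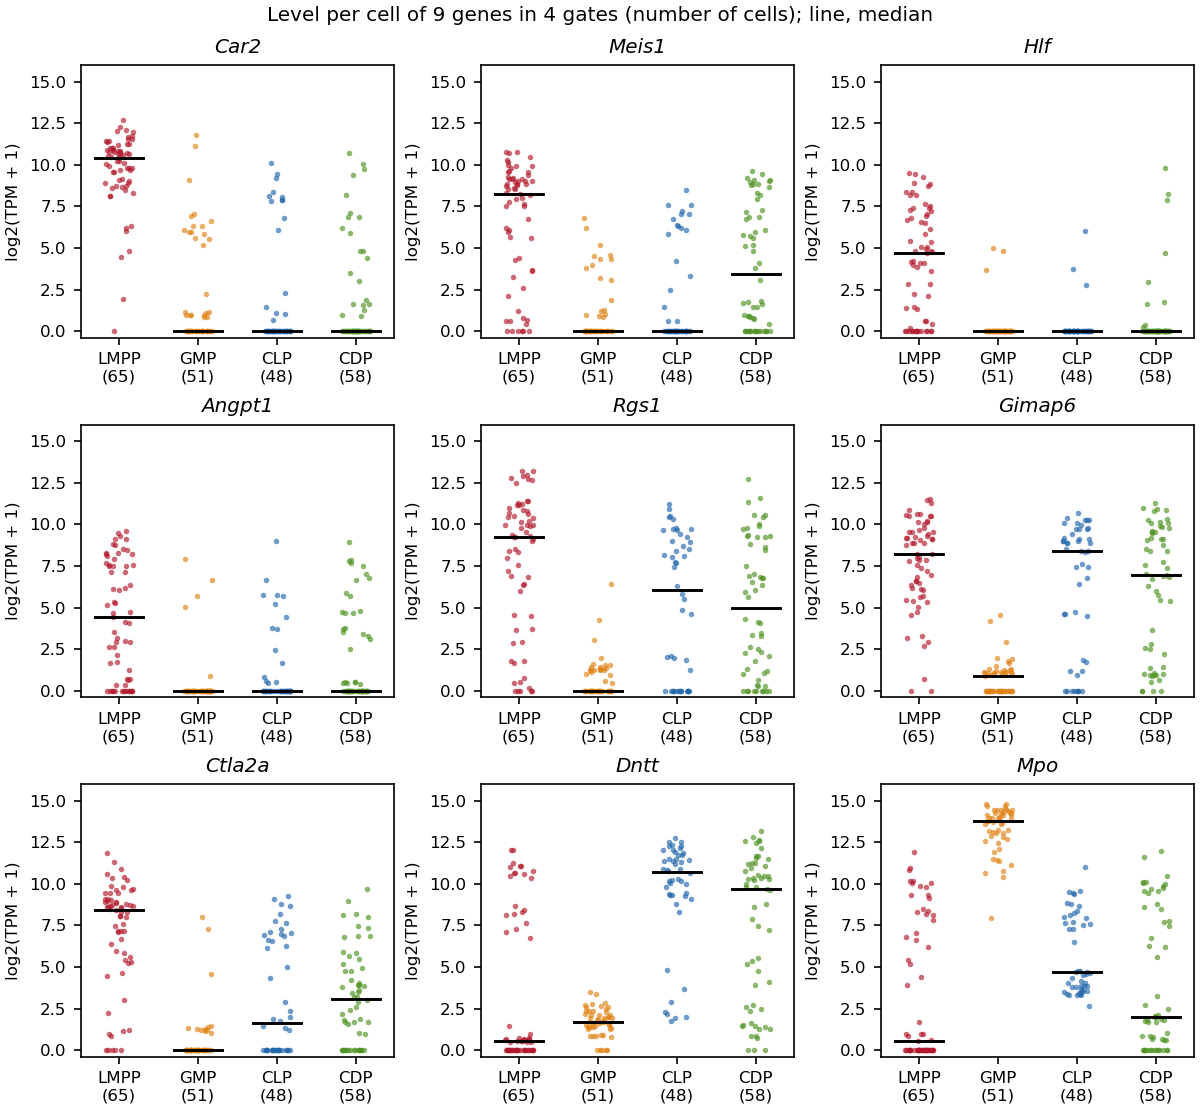
Level per cell, as log2(TPM + 1), of 9 genes given as markers of the gate, in 65 LMPP, 51 GMP, 48 CLP and 58 CDP cells; 1 point is 1 cell and the line is the median. Car2 and Meis1 lay high in most LMPP cells, Dntt was at 1 TPM or more in 22 and Mpo in 27 of the LMPP cells, and Mpo was high in all GMP.

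The clearest mark of the LMPP cells was a multipotency programme that the other gates held at a lower level or lacked. Car2, carbonic anhydrase 2, was found at 1 TPM or more in 64 of 65 LMPP cells and ranged from 0 to 6595 TPM with a median of 1376.5. The medians of GMP, CLP and CDP were 0, and the mean of LMPP (9.70 ± 2.32) exceeded that of the next gate, GMP, by 7.42. The groups still overlapped, since 5 GMP, 10 CLP and 8 CDP cells had Car2 at 100 TPM or more. Meis1, a homeodomain partner of Hox proteins in stem cells, was found in 54 of 65 cells, from 0 to 1780 TPM with a median of 298.4. Its mean was 6.59 in LMPP, 3.96 in CDP, 1.99 in CLP and 1.14 in GMP. Hlf, a PAR bZIP factor of stem cells, was found in 47 of 65 LMPP cells (72.3%, interval 59.8 to 82.7), with a median of 24.8 TPM and a highest value of 746. Only 3 of 51 GMP, 3 of 48 CLP and 7 of 58 CDP cells had it. Angpt1, a ligand of the Tie2 receptor, was found in 46 of 65 LMPP cells and ranged up to 792 TPM, with a mean of 4.34 against 2.02 in CDP.

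Ctla2a and Ctla2b encode related cysteine protease inhibitors and lie in the same region of chromosome 13. Ctla2a ranged from 0 to 3664 TPM over the LMPP cells with a median of 343, and its mean of 7.07 was 3.85 above that of CDP. Ctla2b ranged from 0 to 3013 TPM with a median of 204, and its mean of 5.60 was 3.56 above that of CLP. In 44 of the 65 cells both reached 1 TPM, and their levels went together over the cells (Pearson 0.57, Spearman 0.62, n = 65 cells of 1 run, a description only). Reads of such similar copies can be assigned to either gene, so the division between them is uncertain. The 250 bases before the RefSeq start sites of 4 genes, the first with a promoter entry when genes are ranked by their margin over all other gates (13 of the first 20 have one), are shown because these genes had margins from 3.56 to 3.96 and because the levels of the Ctla2 pair went together. Bases are 5′ to 3′ in the direction of transcription on GRCm38.p6, and capitals mark matches, on either strand, to TGACAG (Meis type), GGAAG (ETS type), TGTGGT (Runx type), GATAA (GATA type), CACCTG or CAGCTG (E boxes).
Eltd1, chr3:151437632-151437881, plus strand: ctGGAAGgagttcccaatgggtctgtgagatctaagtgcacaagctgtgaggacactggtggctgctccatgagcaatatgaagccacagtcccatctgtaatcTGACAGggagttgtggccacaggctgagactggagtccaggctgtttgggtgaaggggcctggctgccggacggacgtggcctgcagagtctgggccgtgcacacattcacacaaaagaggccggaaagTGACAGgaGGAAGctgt
Ctla2a, chr13:60936626-60936875, minus strand: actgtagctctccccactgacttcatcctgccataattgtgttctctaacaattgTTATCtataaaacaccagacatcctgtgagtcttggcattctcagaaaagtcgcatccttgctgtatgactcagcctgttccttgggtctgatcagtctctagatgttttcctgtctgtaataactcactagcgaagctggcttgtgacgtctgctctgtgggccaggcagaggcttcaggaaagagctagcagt
Hlf, chr11:90390918-90391167, minus strand: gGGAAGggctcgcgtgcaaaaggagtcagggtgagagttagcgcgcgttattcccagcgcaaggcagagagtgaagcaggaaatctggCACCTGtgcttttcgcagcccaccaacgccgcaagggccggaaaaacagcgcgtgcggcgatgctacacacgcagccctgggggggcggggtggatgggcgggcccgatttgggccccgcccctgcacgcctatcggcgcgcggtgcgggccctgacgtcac
Ctla2b, chr13:60897448-60897697, minus strand: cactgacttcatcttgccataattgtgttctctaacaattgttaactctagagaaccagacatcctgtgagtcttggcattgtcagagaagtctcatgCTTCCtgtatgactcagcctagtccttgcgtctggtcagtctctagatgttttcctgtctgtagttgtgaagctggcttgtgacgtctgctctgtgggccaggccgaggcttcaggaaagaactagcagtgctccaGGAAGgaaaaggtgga

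The window of Eltd1, an adhesion receptor gene now named Adgrl4, held 2 Meis type and 2 ETS type matches. That of Hlf held 1 ETS type and 1 CACCTG match, that of Ctla2a 1 GATA type match and that of Ctla2b 2 ETS type matches. The Ctla2a and Ctla2b windows were identical at 208 of 228 aligned bases (91.2%), and none of their marked matches was of a type found in both. Among the 32851 promoter windows of the same length, 15.9% held the Meis type letters, 64.1% the ETS type, 14.05% the Runx type, 22.6% the GATA type, 17.2% CACCTG and 13.001% CAGCTG. None of the 6 motifs contains another. A match is a run of letters and does not show that a factor binds there.

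Of 1702 genes found in at least 50% of LMPP cells, 32 had an LMPP mean above all 11 other gates by 1 or more, and 125 were highest by any margin. Besides those above, they included Eltd1 (mean 6.38, margin 3.96), Calcrl (margin 2.43), which encodes a receptor of the calcitonin family, and Gpr56 (margin 2.41), an adhesion receptor of stem cells. Rgs1, which shortens signalling by G protein-coupled receptors, ranged from 0 to 9651 TPM with a median of 604 and had a margin of 2.54 over CLP. Ikzf2, a relative of Ikaros, was found in 36 of 65 cells with a margin of 2.35. Msi2, an RNA-binding protein of stem cells, was found in 58 of 65 cells with a margin of 1.56, and Foxo3, a forkhead factor linked to quiescence, in 61 of 65 with a margin of 1.72. Ifitm1, an interferon-inducible membrane protein, had a mean of 7.54 against 5.34 in GMP and 1.09 in CDP. Vmp1 (autophagy), Snf8 (endosomal sorting), Acot2 (fatty acid thioesterase), Park2 (a ubiquitin ligase) and Spry2 (an inhibitor of receptor tyrosine kinase signalling) had margins from 1.69 to 2.72. Entries named by a clone are not described.

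At the other end, 78 of 6530 genes had an LMPP mean below all 11 other gates by 1 or more. Ly86, the partner of the receptor RP105, was found in 3 of 65 LMPP cells and had a mean of 0.41, a difference of -6.06 from the lowest other gate, blood pre-DC. Tyrobp and Fcer1g, signalling adaptors of myeloid receptors, had means of 3.17 and 2.13 and differences of -5.43 and -5.17 from the lowest other gate, CDP. Irf8, an interferon regulatory factor that directs monocyte and dendritic cell development, was found in 7 of 65 LMPP cells (10.8%, interval 4.44 to 20.9), against 50 of 51 GMP, 45 of 48 CLP and 55 of 58 CDP cells. The lysosomal proteases Ctss, Ctsh, Ctsz and Ctsb had means from 0.89 to 2.80, each the lowest of the 12 gates. Each of these genes thus had a higher mean in all 11 other gates, the lymphoid ones included.

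**Figure D2:**
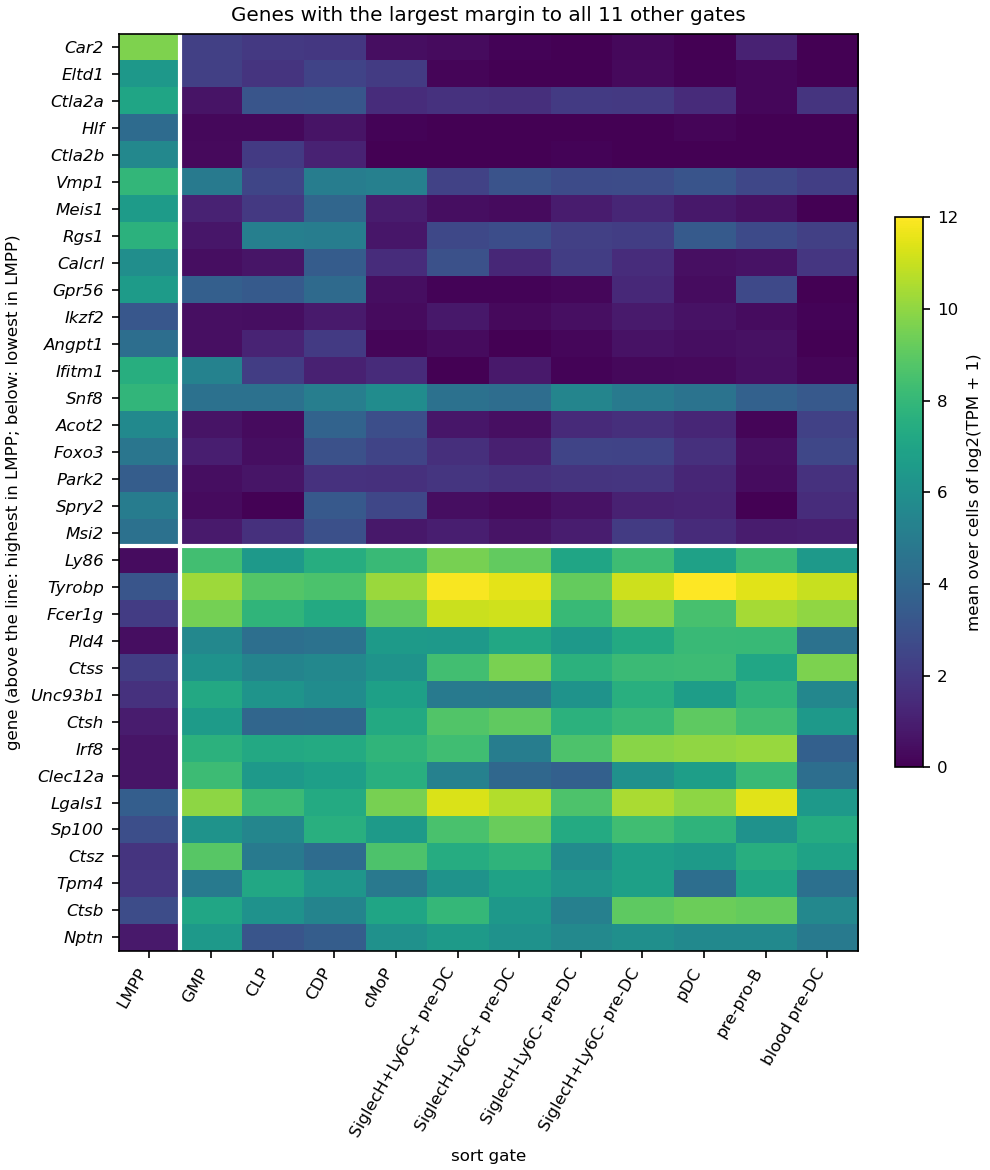
Mean over cells of log2(TPM + 1), as colour, in the 12 gates (columns) for the named genes with the largest margin above (upper block) or below (lower block) all 11 other gates. In the upper block Car2 stands at 9.70 in LMPP and at 2.29 or less elsewhere; in the lower block Ly86 stands at 0.41 in LMPP and at 6.47 or more elsewhere.

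Against GMP, the gate of neutrophil and monocyte progenitors, LMPP held little of the granule programme. Elane, neutrophil elastase, was found in 1 of 65 LMPP cells at 72.9 TPM, whereas it ranged from 376 to 33098 TPM over the 51 GMP cells. Ctsg, cathepsin G, was found in 3 LMPP cells against a GMP mean of 11.66, and Ms4a3 stayed below 1 TPM in all LMPP cells against a GMP mean of 9.34. Of 12 granule genes 11 were lower by 1 or more and 0 higher, with a median difference of -6.90. The background was wide in the same direction, since 59.3% of 9315 genes were lower in LMPP by 1 or more and 8.82% higher, with a median of -1.36, while GMP cells had more genes detected. The part of gene number in this was not tested. Among cells of 4000 to 6000 genes (13 LMPP, 22 GMP) the median over all genes was -0.83.

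The multipotency genes stood out against that background with 13 of 24 higher and 1 lower than in GMP, at a median of 1.13. Of the 24, 17 passed the filter on low values, 1 TPM in at least 20% of the cells of either gate. The exception was Eng, an endothelial and stem cell co-receptor, at a mean of 1.08 in LMPP and 2.22 in GMP. The markers Car2, Meis1, Hlf, Angpt1 and Ctla2a belong to this list, so its direction is not independent of how the gate's markers had been picked. Without these 5 genes, 8 of 19 were higher and 1 lower, at a median of 0.51. The other 19 were also listed with earlier results of these data known, here and in the comparisons below, so they are no independent check. The median of all 24 was 0.37 at a pseudocount of 10 and 3.01 with the log2 of the mean TPM. Gimap6, a GTPase of lymphoid cells, ranged from 0 to 2905 TPM in LMPP with a median of 293.2 and did not exceed 22.4 TPM in GMP. Of the 10 largest differences upward, 6 were of genes such as Sept2 and Pim1 that were low in all 3 gates of the shared run and higher in all 9 others, and 1 of 10 downward (Taf10) had the opposite pattern. For those genes the shared run and the cell type cannot be told apart. Car2, Rgs1, Gimap6 and Ctla2a did not have that pattern, which says nothing about the LMPP libraries' own run.

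Against CLP, multipotency genes were higher in LMPP and most early lymphoid genes were lower. Of the 24 multipotency genes 12 were higher in LMPP and 0 lower, with a median of 1.10, where 15.2% of 7087 genes were higher and 26.7% lower at a median of -0.25. Without the 5 markers 7 of 19 were higher and 0 lower, at a median of 0.73. Of the 16 early lymphoid genes 1 was higher and 9 were lower, with a median of -1.08. Of 13 lymphoid transcription factors 3 were lower, a share near the background, and 0 higher (median -0.07). Lists of other kinds had lower members too, 7 of 15 pDC genes and 4 of 11 monocyte genes. Dntt had a mean of 3.29 in LMPP and 9.53 in CLP. Ly6d, a surface protein of lymphoid progenitors, was listed at 0 in every LMPP cell, while its mean was 8.69 in CLP, where it was found in 48 of 48 cells. Rag1, a subunit of the V(D)J recombinase, was found in 1 LMPP cell at 2.77 TPM, and Rag2 in 4. Lck, a kinase of T cell receptor signalling, had a mean of 1.69 against 4.88, and Blnk, an adaptor of the B cell receptor, 0.54 against 4.79. The exception was Il2rg, the common gamma chain of cytokine receptors, at 4.64 in LMPP and 3.27 in CLP. Of the 10 largest differences upward 8 followed the shared run (Sod1 and Cbx3 among them), as did 3 of 10 downward (Pgls, Glrx5 and Hist1h2ap).

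CDP came closest to LMPP by the Spearman correlation of gate means over 12660 genes (0.80, against 0.77 for cMoP, 0.76 for CLP and 0.70 for GMP), a description that also carries the number of genes detected. Only 3.24% of 9081 genes were higher in LMPP by 1 or more and 28.1% were lower, at a median of -0.59. Of the 24 multipotency genes 10 were higher and 0 lower (median 0.58), and of the 19 without the markers 5 and 0 (median 0.49). Ifitm1 was found in 52 of 65 LMPP and 11 of 58 CDP cells. Ifitm3, of the same family, had a mean of 8.77 and exceeded CDP by 4.56, and Ifitm2 exceeded it by 3.95. Ifitm1 and Ifitm3 were the 2 of 14 interferon-stimulated genes higher than in CDP, and 1 was lower. Of 13 lymphoid transcription factors 7 were lower than in CDP and 0 higher (median -1.58), with Satb1 at 3.33 against 6.17 and Bcl11a at 4.61 against 6.29. Of 19 measured adhesion and homing genes 12 were lower than in CDP and 1 higher, with differences of -3.04 for the integrin gene Itga4 and -3.11 for the selectin ligand gene Selplg, and with the tetraspanin gene Cd9 higher by 1.36. Of 15 pDC genes 9 were lower and 0 higher (median -1.62).

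Against the mean of all 10 other marrow gates, 4.4% of 12559 genes were higher and 16.9% lower, at a median of -0.37. Of the 18 stem cell transcription factors 11 were higher and 0 lower (median 1.24). Mecom, a zinc finger factor of long-term stem cells, was found in 23 of 65 LMPP cells (35.4%), and in none of the GMP or CLP. Its mean was 1.25 in LMPP and 0.22 in CDP, the next gate. Gata2 was found in 25 cells (38.5%, interval 26.7 to 51.4) with a mean of 2.24 against 0.89 in GMP, the next gate. Procr, the endothelial protein C receptor, was found in 6 cells and Tek in 0. Hoxa9 was found in 33 cells, but its mean of 2.69 was no higher than the 2.72 of pre-pro-B cells. It was the only 1 of 17 Hox genes past the fold here (higher by 1.70). Only 3 of the 17 passed the filter on low values, so most had little room to differ. Of 11 monocyte genes 8 were lower and 0 higher (median -1.66), of 12 genes of conventional dendritic cells and MHC class II 7 and 1, and of 15 pDC genes 11 and 0. Il1r1, an interleukin-1 receptor, was higher by 2.73 and Il2rg by 2.52.

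The balance of the all-gene background moved with how the cells were averaged, and against CLP it changed sides. Of the genes past the fold, 12.9% were higher in LMPP against GMP, 36.2% against CLP, 10.3% against CDP and 20.6% against the other marrow gates. With the log2 of the mean TPM, which gives weight to the cells with the highest values, these shares were 42.8%, 52.9%, 23.7% and 41.3%. Among cells of 4000 to 6000 genes they were 23.6%, 36.1%, 46.1% and 46.5%. At a pseudocount of 10 they were 11.8%, 30.3%, 20% and 34.7%.

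**Figure D3:**
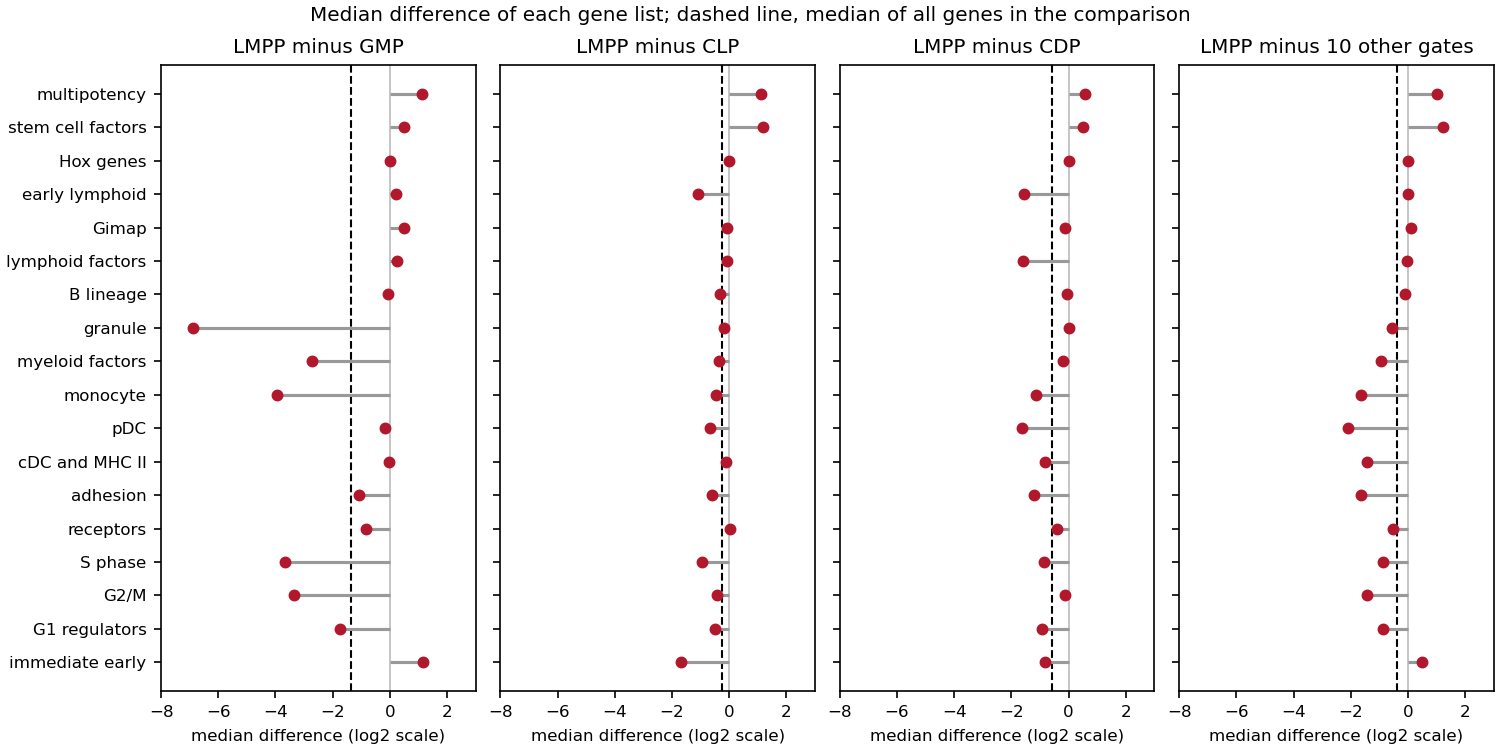
Median difference of each gene list, LMPP minus GMP, CLP, CDP or the mean of the 10 other marrow gates (points, log2 scale), with the median of all genes in that comparison as a dashed line. Multipotency lies right of 0 in each panel (0.58 to 1.13), granule genes lie at -6.90 against GMP, and early lymphoid genes lie at -1.08 against CLP and -1.55 against CDP. The points cover all measured members of a list, while the dashed line covers only genes past the filter on low values.

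Lymphoid priming was present in part of the gate and was close to all or none for Dntt. It was found in 22 of 65 cells (33.8%, interval 22.6 to 46.6), of which 21 were at 100 TPM or more, and it ranged from 0 to 4230 TPM with a median of 0.49. In CLP the lowest cell had 2.42 TPM and the median was 1692 TPM. Thus the 21 LMPP cells at 100 TPM or more lay within the range of the CLP cells, which reached 6889 TPM, and 43 LMPP cells were below 1 TPM. Dntt was not particular to LMPP, whose mean ranked 5 of the 12 gates. Of 58 CDP cells, 13 had Dntt and Mpo at 100 TPM or more and 22 had Dntt only. In GMP, of the same block as CLP, Dntt was at 1 TPM in 40 of 51 cells and at 100 TPM in 0. Ighm, the IgM heavy chain locus, which can be transcribed before rearrangement, was found in 38 LMPP cells from 0 to 3647 TPM, whereas every CLP cell had at least 347 TPM. Its LMPP mean of 4.79 ranked 11 of the 12 gates, above only blood pre-DC (4.60). The GMP, cMoP and marrow pre-DC gates thus had higher Ighm means too, so the transcript did not set lymphoid gates apart here. Satb1, a chromatin organiser of lymphoid priming, was found in 40 cells with a median of 7.22 TPM. Notch1, the receptor of T lineage induction, was found in 18 cells. Gimap1 and Gimap6 had their highest means of all 12 gates in LMPP (2.96 and 7.65), while of the 8 Gimap genes Gimap7 and Gimap9 were lower than in CLP and Gimap6 higher, shares close to the 26.7% and 15.2% of all genes.

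Among the granule genes some were present in many LMPP cells and others in few or none. Mpo was found in 27 of 65 LMPP cells (41.5%, interval 29.4 to 54.4), of which 20 were at 100 TPM or more, and ranged from 0 to 3870 TPM with a median of 0.46. Every GMP cell had at least 241.8 TPM, and the GMP median was 14138 TPM. Prtn3, proteinase 3, was found in 52 of 65 LMPP cells (80.0%, interval 68.2 to 88.9) with a median of 71.9 TPM and a highest value of 2876, against 27 of 58 CDP cells. Csf3r, the G-CSF receptor, was found in 32 cells, and Mgst1, a glutathione transferase, in 22. Elane was in 1 cell, Ctsg in 3, and Ms4a3, Cebpe, Fcnb and Hp in 0. Of the transcription factors that drive the granule genes, Cebpa was found in 5 cells (7.69%) and Gfi1 in 6, and Spi1, which encodes PU.1, in 21. Against CLP, low values need the run beside them. Elane was at 1 TPM or more in 46 of 48 CLP and 28 of 30 pre-pro-B cells, with medians of 8.12 and 11.2 TPM, and Mpo in all cells of both gates. At 100 TPM or more, Mpo was in 20 of 65 LMPP, 19 of 48 CLP, 20 of 58 CDP and 0 of 30 pre-pro-B cells. The part of carried-over granule RNA within that run was not tested.

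Lymphoid and myeloid transcripts occurred in the same LMPP cells about as often as their single shares would give. Both Dntt and Mpo reached 1 TPM in 10 of 65 cells (15.4%, interval 7.63 to 26.5), where the product of the single shares is 14.1%. At 100 TPM both were in 7 cells (10.8%), where the product is 9.94%, 14 cells had Dntt only, 13 Mpo only and 31 neither. Dntt and Meis1 shared fewer cells at 100 TPM, 7 of 65 (10.8%, interval 4.44 to 20.9) with a product of 20.4%. Dntt and Flt3 shared 12 cells (18.5%, interval 9.92 to 30.03) with a product of 12.4%, and Mpo and Cd48, a surface protein gained on leaving the stem cell pool, shared 14 (21.5%, interval 12.3 to 33.5) with a product of 12.8%. Hlf and Satb1 shared 1 cell (1.54%, interval 0.0389 to 8.28) with a product of 6.63%. In each of these pairs the product lay inside the interval of the joint share, for Dntt with Meis1 close to its upper bound. That interval takes the single shares as fixed, so it cannot decide whether the genes of a pair occurred independently. At 100 TPM, 14 cells had Dntt without Meis1, 34 Meis1 without Dntt and 10 neither. For Mpo and Cd48, 6 had Mpo only, 13 Cd48 only and 32 neither. Of Dntt, Mpo and Meis1 at 100 TPM, 2 cells had all 3 genes, 20 had 2 of them, 36 had 1 and 7 had none. Cells with both Dntt and Mpo at 100 TPM were not particular to LMPP. They made up 19 of 48 CLP, 13 of 58 CDP and 0 of 51 GMP cells, against 7 of 65 LMPP cells. The part of carried-over Mpo RNA in the CLP count was not tested.

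**Figure D4:**
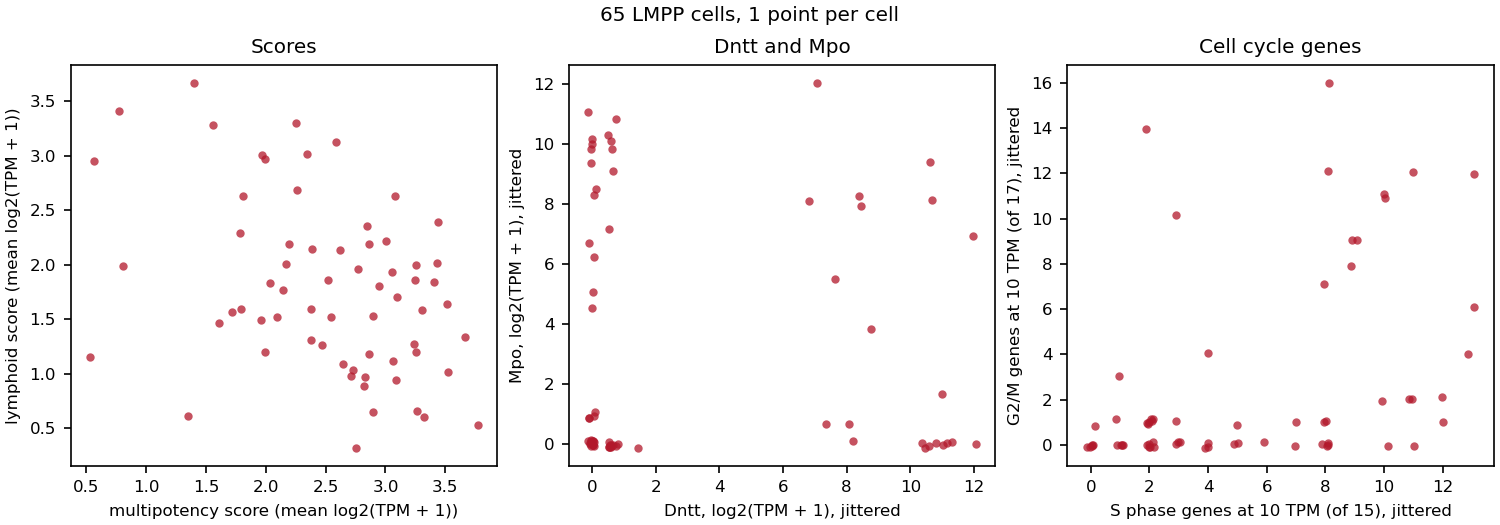
The 65 LMPP cells, 1 point per cell: lymphoid against multipotency score (left, mean log2(TPM + 1)), Mpo against Dntt (middle, log2(TPM + 1)), and number of G2/M against number of S phase genes at 10 TPM or more (right). Both genes were at 100 TPM or more in 7 cells and neither in 31, and 31 cells had no G2/M gene at 10 TPM.

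Scores per cell gave the same spread for whole lists. The multipotency score, the mean log2(TPM + 1) of 24 genes, ran from 0.53 to 3.77 over LMPP cells with a median of 2.64, against medians of 0.74 in GMP, 0.79 in CLP and 1.03 in CDP. Of the 65 LMPP cells 38 lay above every GMP cell, 45 above every CLP cell and 20 above every CDP cell. The 24 genes include the markers Car2, Meis1, Hlf, Angpt1 and Ctla2a, so this separation is not independent of how the markers had been picked. No score without them was computed. The lymphoid score, from the early lymphoid and Gimap genes without Flt3, ran from 0.32 to 3.66 with a median of 1.71, and 7 LMPP cells lay above the CLP median of 2.97. The granule score ran from 0 to 3.18 with a median of 1.26, and all 65 LMPP cells lay below the lowest GMP cell (3.55). Over the LMPP cells the multipotency and lymphoid scores were inversely related (Pearson -0.39, Spearman -0.33, n = 65), with a Pearson value of -0.25 for the numbers of members at 1 TPM and of -0.50 without the Gimap genes. Dntt and Ighm, 2 of the 23 members of the lymphoid score, had the highest Pearson values with it (0.73 and 0.66), which include their own part in the score. The lymphoid score also rose with the number of genes detected (Pearson 0.36), to which the multipotency score was hardly related (-0.04). The granule score had Pearson values of 0.17 with the multipotency score, -0.06 with the lymphoid score and 0.29 with the number of genes detected. Single pairs gave Pearson values of -0.41 for Dntt with Meis1, 0.41 for Dntt with Flt3, 0.37 for Mpo with Cd48 and 0.09 for Meis1 with Hlf. All points share 1 run and the total of each cell's TPM, so these values are descriptions.

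**Figure D5:**
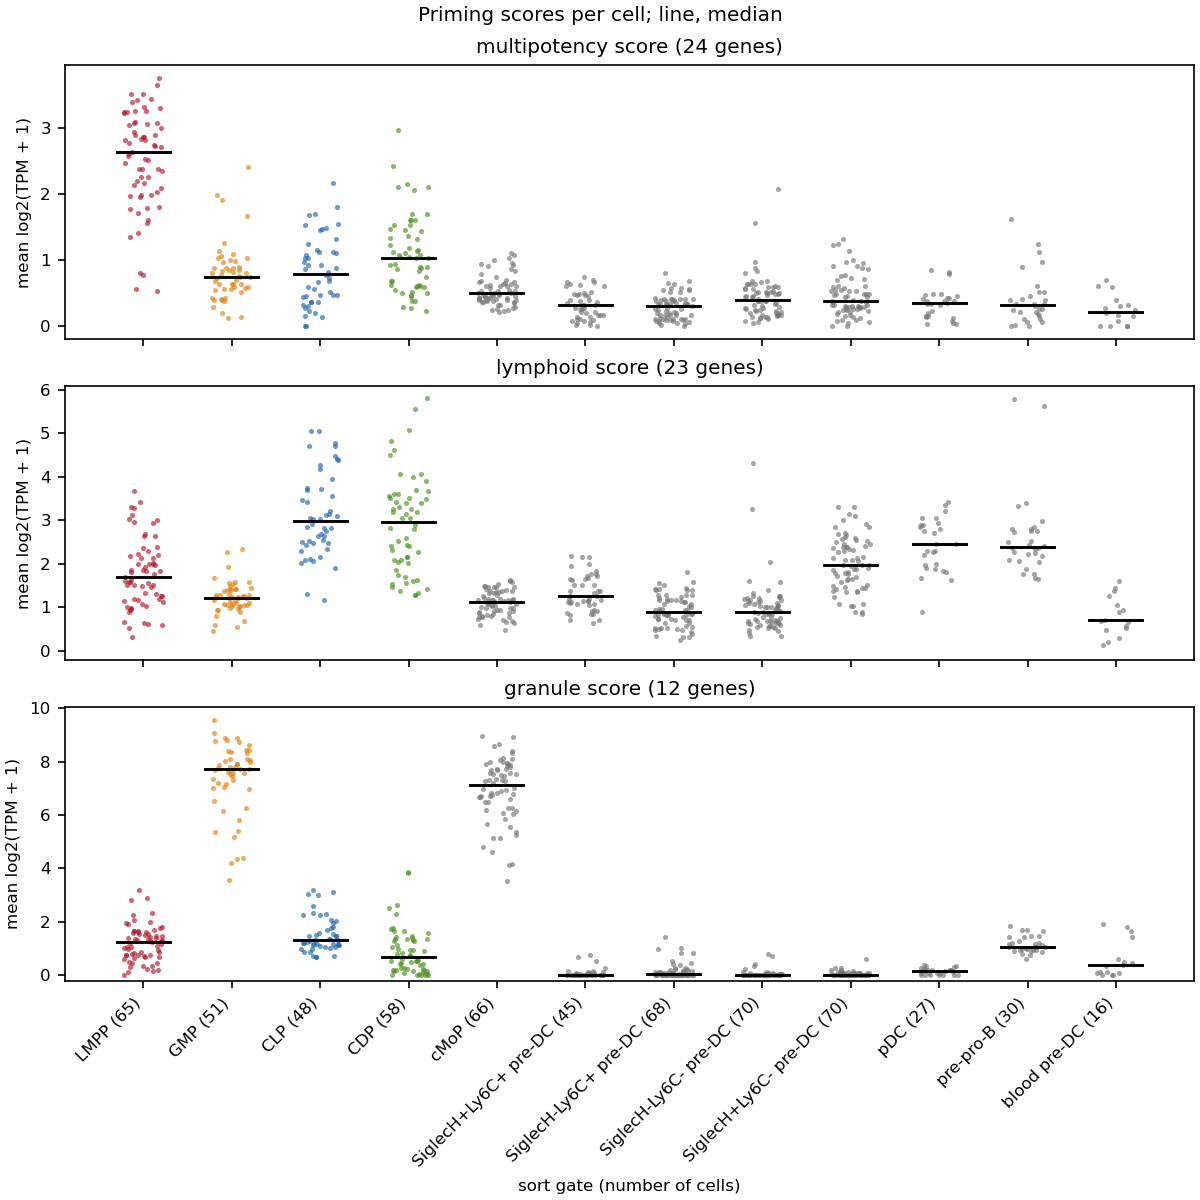
Multipotency (24 genes), lymphoid (23 genes) and granule (12 genes) scores per cell in the 12 gates, as mean log2(TPM + 1); 1 point is 1 cell and the line is the median. LMPP has the highest multipotency median (2.64), a lymphoid median of 1.71 below those of CLP and CDP, and a granule median of 1.26 where GMP stands at 7.70. The multipotency score includes Car2, Meis1, Hlf, Angpt1 and Ctla2a, which were given as markers of the gate.

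The cells with the strongest expression of a gene that others lacked were described by 1568 genes found at 10 TPM or more in 30 to 70% of LMPP cells. Dntt led them, at a geometric mean of 799.2 TPM in the 21 cells that had it, and the geometric mean of Ighm was 530 TPM in 33 cells. Wfdc17, a secreted protease inhibitor-like protein, came between them (532 TPM in 41 cells), with Pearson values from -0.01 to 0.08 with the 3 scores. Ccl3 and Ccl4, chemokines of activated cells, were in 30 and 34 cells, Cd69, an early activation marker, in 31, and Egr1, an immediate-early factor, in 27. Ctla2b went with the multipotency score (0.39), and Dhrs3, a retinal reductase, with the lymphoid score (0.34). Paics, an enzyme of purine synthesis, and Idh3g, of the citric acid cycle, rose with the number of genes detected (0.45 and 0.33).

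A minority of LMPP cells had most of the mitosis genes, and none had all 17 at 10 TPM. At least 9 of 17 G2/M genes were at 10 TPM or more in 10 of 65 LMPP cells (15.4%, interval 7.63 to 26.5), against 35 of 51 GMP (68.6%), 9 of 48 CLP (18.8%) and 6 of 58 CDP cells (10.3%). At least 8 of 15 S phase genes were so in 25 LMPP cells (38.5%, interval 26.7 to 51.4), against 47 GMP (92.2%), 21 CLP (43.8%) and 27 CDP cells (46.6%). These thresholds were chosen after the values were seen. Against GMP all 17 G2/M and all 15 S phase genes were lower by 1 or more, where 59.3% of all genes were. The S phase score rose with the number of genes detected (Pearson 0.67), and the 10 cells had a median of 4161.5 genes against 3184 in the others. Among the regulators of the G1 phase, Cdk6, a cyclin-dependent kinase, was found in 62 of 65 LMPP cells from 0 to 3250 TPM. Its mean was 4.42 above CLP and 3.27 above GMP, with a difference of -0.66 from CDP. Ccnd3, a D-type cyclin, had differences of -4.42 from CLP and -5.00 from GMP. Its LMPP mean was the lowest of the 12 gates (2.80), with pDC next at 2.92. Pre-pro-B cells, of the same block as CLP and GMP, had the lowest Cdk6 mean (1.85) and the highest Ccnd3 mean (8.64). For these differences from CLP and GMP the shared run and the cell type cannot be told apart.

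The immediate-early genes, a quick response to signals and to tissue handling, varied between cells. Fos ranged from 0.35 to 6110 TPM with a median of 849 and was found in 55 of 65 LMPP cells. Of 15 such genes 8 were higher and 3 lower than in GMP (median 1.14), 1 and 10 than in CLP (median -1.67), and 1 and 7 than in CDP (median -0.84). The shares of all genes higher and lower were 8.82% and 59.3% against GMP, 15.2% and 26.7% against CLP, and 3.24% and 28.1% against CDP. Rgs1, which is on this list, was the member higher than in CLP and in CDP. Over the 65 cells the immediate-early score had a Pearson value of -0.02 with the multipotency score and of 0.09 with the lymphoid score. Handling was not recorded per gate, and its part in these differences was not tested.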

How the data were processed

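The values are TPM per gene and cell, deposited by the authors, made with RSEM 1.2.19 on GRCm38, per the submitters' processing notes. Which aligner and gene models were used is not stated in the labels or notes, and 44 symbols whose values look like averages of several entries were not ranked. Per the labels, only cells with high-quality cDNA went on to libraries. TPM hold no counts, so no count model was used, and genes at 1 TPM per cell stand in for the unknown depth. Cells are not replicates, and no test between gates was made. From the TPM, log2(TPM + 1), shares of cells with exact 95% intervals, list medians and scores were computed with Python 3.11.15 (matplotlib 3.10.9, scipy 1.17.1, pandas 2.3.3, numpy 2.4.6). The gate means and their differences were tested on data simulated from LMPP cells, with known changes put into a random part of the cells. The shares, intervals, list medians and scores were not tested in this way. All-gene comparisons kept genes at 1 TPM in 20% of cells in either gate. List counts and list medians took every measured member, also those that did not pass this filter. The genes named were the 10 largest differences in each direction per comparison, the 20 highest and 15 lowest against all gates, 15 variable genes and members of 30 lists. Predicted genes, sort markers and clone-named entries were not ranked or not named. No doublet caller was run, and the 5% of cells with the most genes were left out as an alternative. The gate's markers and the lists were chosen with earlier results of these data known. Promoter windows are from RefSeq (GRCm38.p6).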

Additional observations from a re-analysis of the deposited data

How the results depend on the processing

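No paired analysis was possible because each gate is 1 sample and no result comes from a test. With 1 sample per gate no spread between animals is known, the run of the LMPP libraries cannot be separated from the gate, and the unknown depth limits every share of cells at a low TPM. The cause of the changes listed here was not tested. Of 86 counts of genes past the fold 32 moved by over 1.5 times, 63 list medians moved by more than the SD over LMPP cells and 2 reversed, and of 1295 single gene differences 147 moved and 10 reversed. Of 48 shares of LMPP cells 14 left their interval, all at a threshold of 10 or 100 TPM, and of 24 scores, their correlations and counts of highest genes 2 moved. The multipotency median was above 0 in each comparison for which an alternative was run. Shares are percentages of the genes compared. As reported, 8.82% were higher and 59.3% lower than in GMP, 15.2% and 26.7% than in CLP, 3.24% and 28.1% than in CDP, and 4.4% and 16.9% than in the other marrow gates.

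At a pseudocount of 0.1, the granule median against GMP was -8.77. Against CLP 25.9% were higher and the multipotency median was 2.10. Against CDP 5.50% were higher and 54.9% lower. Against the other marrow gates 6.68% were higher and 35.7% lower, and the multipotency median was 1.91. At a pseudocount of 10, 4.28% were higher and 32.2% lower than in GMP, with medians of 0.37 for multipotency and -4.58 for granule genes. The shares were 5.80% and 13.3% against CLP, 1.498% and 5.99% against CDP, and 2.30% and 4.32% against the other marrow gates.

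With the log2 of the mean TPM + 1, 22.5% were higher and 30.07% lower than in GMP, and the medians were 3.01 for multipotency, 1.53 for early lymphoid, -4.23 for granule genes and, reversed, 0.27 for G1 regulators. Myc reversed to 0.092 against GMP. Against CLP 25.4% were higher, the multipotency median was 2.66, and Mpo (0.54), Flt3 (0.29) and Ctsg (0.41) reversed. Against CDP 9.48% were higher, the multipotency median was 1.82 and Ccnd2 reversed to 0.093. Against the other marrow gates 15.98% were higher, the medians were 3.14 for multipotency and 0.75 for granule genes, and Fcgr3 (0.94) and Ctsg (1.09) reversed.

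Among cells of 4000 to 6000 genes (13 LMPP, 22 GMP, 6 CLP and 50 CDP cells), 14.1% were higher than in GMP, 21.2% higher and 37.4% lower than in CLP, 16.6% higher than in CDP and 11.5% higher than in the other marrow gates. Prtn3 reversed to -0.81 against CLP, Cd48 to 1.91 against CDP, and the G2/M median to 0.14 against the other marrow gates. At a threshold of 2 log2 units, 3.66% were higher and 35.9% lower than in GMP, 5.63% and 9.52% than in CLP, 1.06% and 5.78% than in CDP, and 1.401% and 3.23% than in the other marrow gates. Without cells with Mki67 or Top2a at 10 TPM, an alternative chosen after seeing the data that leaves out 25 LMPP cells, 5.15% were higher than in CDP and Gimap6 reversed to -0.30.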
